A study of Homo sapiens with 27 samples.

Results

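The arrays compared here measured microRNAs (miRNAs) in OCI-AML3 cells after 1 h with POL6326 and in untreated cells taken at 0 h. They were chosen by their titles and are 6 of the 27 arrays of the series, 3 in each group, and all 774 human miRNA probes of the array were used. OCI-AML3 is an established acute myeloid leukaemia line that carries a mutated NPM1 gene. The treated cells received 250 nM POL6326, an antagonist of the chemokine receptor CXCR4, and the control cells received nothing. All cells were grown in RPMI medium with fetal bovine serum. Arrays of cells that received 250 nM POL6326 for 2, 4 or 8 h, or 100 ng/mL of the CXCR4 ligand SDF-1α for 1 h, are used below only to place the 1 h values. There was no untreated group at 1 h, so that POL6326 and the time spent in culture and handling cannot be told apart. Nothing in the labels tells whether replicate arrays are separate cultures or repeats of 1 RNA, and the p-values below measure the spread between these arrays only.

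CXCR4 is a G protein-coupled receptor. On leukaemic blasts it binds SDF-1α (CXCL12) made by marrow stroma, which holds the cells in the marrow and feeds calcium, ERK and AKT signals, and antagonists such as POL6326 occupy the receptor and release cells into the blood. miRNAs are short RNAs cut from hairpin precursors. They pair with target transcripts mainly through the seed, bases 2 to 8 from the 5′ end, so that miRNAs with the same seed share many predicted targets. One strand of the hairpin usually becomes the main mature miRNA, and the other, the star strand, is mostly degraded. The title of the series links CXCR4 to let-7a, a member of a family of tumour-suppressing miRNAs that repress RAS and MYC transcripts.

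The mature sequences below are those that the results turn on, written 5′ to 3′ with the seed in capitals. They are taken from RefSeq (GRCh38.p14) by name. No probe sequence is at hand, so what each probe pairs with was not checked. miR-212 and miR-132 come from neighbouring hairpins on chromosome 17, have the same seed and are identical at 17 of 21 positions.
miR-212: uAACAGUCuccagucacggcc
miR-132: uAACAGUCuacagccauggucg
The hairpin of miR-212, whose own probe also fell, is shown with the mature strand in capitals.
miR-212 hairpin: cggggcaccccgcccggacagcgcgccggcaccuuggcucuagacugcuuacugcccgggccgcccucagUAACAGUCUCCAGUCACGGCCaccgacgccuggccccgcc
miR-30c fell, and miR-30a, with the same seed and 17 of 22 identical positions, did not pass the test.
miR-30c: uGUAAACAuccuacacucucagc
miR-30a: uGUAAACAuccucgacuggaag
let-7i rose and let-7a did not pass the test. They share a seed and 18 of 22 positions.
let-7i: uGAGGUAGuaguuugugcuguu
let-7a: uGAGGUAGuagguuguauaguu
miR-15b fell, and miR-16, from a neighbouring hairpin on chromosome 3 and a further copy on chromosome 13, did not pass the test. They share a seed and 14 of 22 positions.
miR-15b: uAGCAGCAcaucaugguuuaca
miR-16: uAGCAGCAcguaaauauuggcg
miR-106b fell, and miR-17, with the same seed and 18 of 21 identical positions, did not pass the test, whereas the star strand of miR-17 rose.
miR-106b: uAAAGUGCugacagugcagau
miR-17: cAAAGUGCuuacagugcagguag
miR-17*: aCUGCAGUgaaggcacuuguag
The remaining sequences belong to single miRNAs with different seeds that changed.
miR-125b-2*: uCACAAGUcaggcucuugggac
miR-496: uGAGUAUUacauggccaaucuc
miR-608: aGGGGUGGuguugggacagcuccgu
miR-128a: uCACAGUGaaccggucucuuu
miR-10a: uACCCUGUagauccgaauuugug
miR-551a: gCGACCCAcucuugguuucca
miR-603: cACACACUgcaauuacuuuugc
miR-187: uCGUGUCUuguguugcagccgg

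The deposited values are log2 signals. On each array the dim probes share 1 tied low value, called the floor here, and the lowest value above it is called the detection limit. In control, array 1 had 560 probes above the floor and a detection limit of 4.30, against 304 probes and 5.83 on array 2 and 257 probes and 6.45 on array 3. The POL6326 1 h arrays were alike, with 318, 334 and 327 probes above the floor and limits of 5.22, 5.09 and 5.33. Control array 1 stood apart by this measure, and dim probes could be read on it that read as the floor on the other control arrays. Over the 774 probes the arrays of a group correlated at 0.904 to 0.953 in control and at 0.930 to 0.950 with POL6326, and the correlation between arrays of different groups was 0.872 to 0.923. There were 223 probes read above the floor on each of the 6 arrays, 201 at the floor on each and 350 mixed. The myeloid marker miR-223 was among the brightest probes, at 14.39, 15.46 and 15.12 in control and 15.12, 15.46 and 15.46 with POL6326. Of the other blood-cell miRNAs listed as markers, miR-24 had means of 10.11 in control and 9.14 with POL6326, and miR-150 of 8.18 and 8.26. The marker miR-181a was above the floor on only 1 array of each group (means of 4.99 and 5.23). miR-155, listed here as inflammatory, read 11.06 to 12.20. The blood-cell miRNA miR-142 was bright by its 5p probe, at 7.03 to 9.36, but its 3p probe was at or near the floor on all 6 arrays, as was miR-21.

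After 1 h with POL6326, 37 of 774 probes (4.78%) differed from control at an adjusted p under 0.05 (limma's moderated test on a fit of all 27 arrays, Benjamini-Hochberg over 774 probes). Of these, 18 rose (2.33%) and 19 fell (2.45%). At an unadjusted p under 0.05 there were 131 probes, 66 higher and 65 lower. Of the 20 read above the floor on all 6 arrays, 13 fell and 7 rose. miR-212 and its precursor, miR-30b, miR-30c, miR-128a and miR-10a fell 1.96- to 2.24-fold, and miR-551a, miR-132 Plus/Minus, miR-15b and miR-302d* fell 3.93- to 6.02-fold. The largest rise of the 7 was that of miR-496, and 11 other rises, led by miR-125b-2*, were of probes at the floor on at least 1 control array. The median log2 difference was 0.01 over all probes, and 0.06 over the 387 probes brightest by mean signal, of which 184 were lower with POL6326. The values of the 3 treated arrays did not overlap those of the 3 control arrays for any of the 37, which was also so for 230 of 774 probes (29.7%), including minute differences between floors. An exact permutation test of 3 against 3 arrays cannot go below 0.1, so that the calls rest on the spread pooled over the 9 groups, and with only these 6 arrays in the fit 7 probes passed. Without control array 1, control array 2 or POL6326 array 3 the count was 21, 14 or 20.

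**Figure D1:**
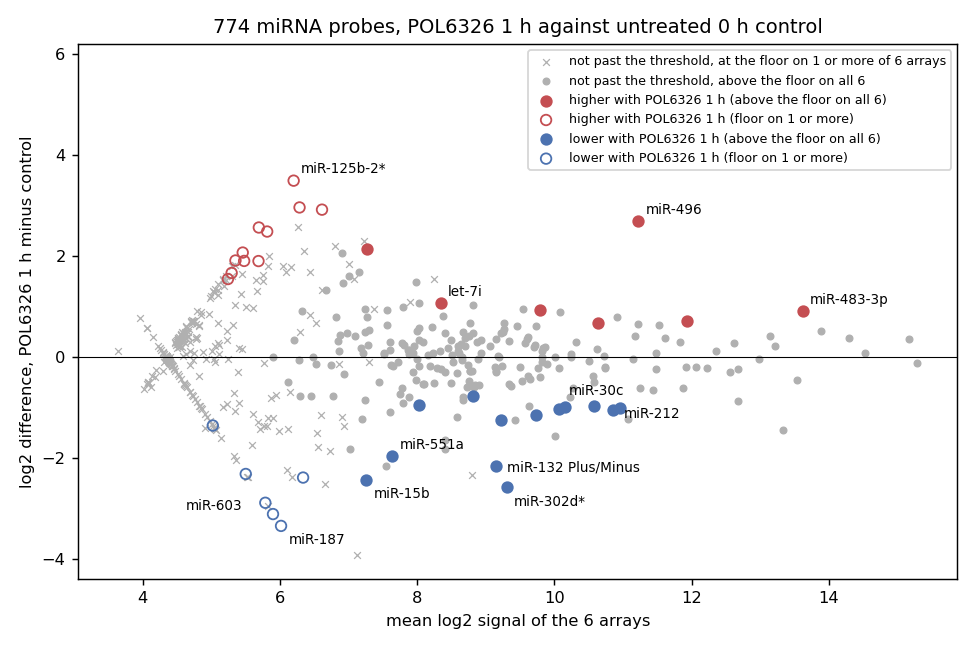
Log2 difference between POL6326 1 h and control (vertical axis) against the mean log2 signal of the 6 arrays (horizontal axis), 1 point per miRNA probe. Of the 37 probes past the threshold, 20 were above the floor on all 6 arrays (filled, 7 higher and 13 lower) and 17 were at the floor on at least 1 array (open, 11 higher and 6 lower).

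By kind of probe, 24 of 498 probes for main mature strands passed, 5 of 139 for star strands and 8 of 137 for precursors. Of the 19 falls, 13 were measured above the floor on all 6 arrays. Of the 18 rises, 10 were read above the floor in control on array 1 alone, at values under the detection limits of control arrays 2 and 3. When each floor value was set to the detection limit of its own array, an alternative chosen after seeing the data, all 37 kept their direction, and 17 of the 19 falls but 6 of the 18 rises passed again; 37 probes passed in all, 8 higher and 29 lower. Setting floor values to the limits also moved the median log2 difference of all probes from 0.01 to -0.32. It therefore does not treat rises and falls alike. Quantile normalization of the deposited values gave 21 higher and 14 lower.

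The calls differed in how far they rested on single arrays. When each of the 6 arrays was left out in turn, 8 calls passed every time: miR-125b-2*, miR-30c, miR-212 and its precursor, miR-138-1* Plus/Minus, miR-551a, miR-186 and miR-603. Another 4 ended for 1 array: let-7i and the miR-194-1 precursor without control array 2, and the miR-433 and miR-646 precursors without control array 1. For 2 arrays it was miR-128a, miR-30b, miR-608 and miR-674, and for 3 miR-132 Plus/Minus and miR-496. The calls of miR-15b, miR-106b, miR-363*, miR-302d*, miR-672, miR-203, miR-451 and the miR-320 precursor ended for 4 of the 6. Those of miR-187, miR-345, miR-190b, miR-137, miR-197, miR-483-3p and the miR-637 precursor ended for 5, and those of miR-10a, miR-17*, the miR-128a precursor and the miR-564 precursor for any of the 6. All these fits kept the other groups. With only the 6 arrays compared in the fit, 31 of the 37 calls ended. Among them were miR-212 (limma's adjusted p = 0.0822), its precursor (0.122), miR-138-1* Plus/Minus (0.138), miR-551a (0.122) and miR-186 (0.0986). miR-125b-2*, miR-30c and miR-603 passed in that fit.

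miR-212 and miR-132 are transcribed together and are known as targets of the transcription factor CREB, which acts downstream of receptor signals. The miR-212 probe read 11.48, 11.46 and 11.23 in control and 10.10, 10.28 and 10.59 with POL6326. All 3 treated arrays were lower than all controls, and the signal fell 2.09-fold (log2 -1.06, SE 0.18, adjusted p = 0.00219). The miR-212 precursor probe read 10.31, 10.87 and 10.57 in control and 9.31, 9.54 and 9.78 with POL6326. It fell by nearly the same amount, 2.06-fold (log2 -1.04, SE 0.18, adjusted p = 0.00219). The probe named miR-132 with the mark Plus/Minus, whose meaning is not given in the sources used here, read 10.30, 10.79 and 9.60 in control and 8.43, 8.16 and 7.62 with POL6326. It fell 4.47-fold (log2 -2.16, SE 0.50, adjusted p = 0.0184). The plain miR-132 probe was near the floor in both groups (means of 4.45 and 4.34), so that what the marked probe reads was not tested. Of the 6 probes of miR-212 and miR-132, 3 fell, beside 2.45% of all probes. All 6 differences were below 0, as were 332 of all 774, and their median was -1.05, against 0.01 over all probes. The plain miR-132 difference of -0.11 rests on 1 control array above the floor. Because these miRNAs are transcribed together, the 6 probes are not separate lines of evidence.

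The miR-30 family is abundant in many tissues and its members share a seed. miR-30c was the steadiest of the falls: it read 11.04, 11.14 and 11.00 in control and 10.23, 10.14 and 9.91 with POL6326. The fall was 1.96-fold (log2 -0.97, SE 0.14, adjusted p = 0.000813) and passed under each alternative. miR-30b read 11.41, 11.50 and 11.48 in control against 10.57, 10.72 and 10.06, a 2.01-fold fall (log2 -1.01, SE 0.24, adjusted p = 0.0184) with no overlap. miR-30a differed by -0.79 (adjusted p = 0.123) and miR-30d by -0.23 (adjusted p = 0.993), and miR-30e was at the floor on all 3 treated arrays and 1 control array. Over the 11 probes of the family, 2 fell, 0 rose, 8 differences were below 0 and the median was -0.39, beside 2.45% of all probes that fell and a median of 0.01.

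Families that act on the cell cycle had further members among the falls. miR-15b, a relative of miR-16 in a family that represses cyclins and BCL2, read 8.56, 8.64 and 8.23 in control and 6.15, 5.73 and 6.23 with POL6326. It fell 5.42-fold (log2 -2.44, SE 0.59, adjusted p = 0.0235), whereas its neighbour miR-16 differed by -0.23 (SE 0.39, adjusted p = 0.993). That family had 1 of 13 probes past the threshold, beside 4.78% of all probes, and a median of -0.01. miR-106b, a relative of miR-17 that represses the cell-cycle inhibitor CDKN1A, read 8.29, 8.58 and 8.61 in control and 7.38, 7.64 and 7.61 with POL6326, a 1.93-fold fall (log2 -0.95, SE 0.24, adjusted p = 0.0256). miR-25 and miR-93 of the same cluster differed by -0.61 (adjusted p = 0.476) and 0.05 (adjusted p = 0.993). miR-363*, the star strand of a hairpin in another copy of the cluster, read 9.77, 9.99 and 9.76 against 8.10, 8.65 and 9.03, and fell 2.37-fold (log2 -1.25, SE 0.31, adjusted p = 0.0236). miR-17* rose, from 4.52 on control array 1 and the floor on the others to 6.70, 6.59 and 7.62 (log2 2.56, SE 0.71, adjusted p = 0.0446), while miR-17 itself differed by -0.54 (adjusted p = 0.247). With floor values at the detection limits miR-17* differed by 1.37 (adjusted p = 0.222) and with 1 common limit by 0.067 (adjusted p = 0.663), and neither passed. Of the 27 probes of the clusters of miR-17 and its relatives 2 fell and 1 rose, beside 2.45% and 2.33% of all probes.

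The other falls read on all 6 arrays were miR-128a, miR-10a, miR-551a, miR-302d* and the miR-564 precursor. miR-128a, best known from brain and also present in early blood progenitors, read 10.39, 10.89 and 10.68 in control and 9.33, 9.96 and 9.67 with POL6326, a 2.00-fold fall (SE 0.23 on the log2 scale, adjusted p = 0.0165). The miR-128a precursor probe fell too, from 7.81, 7.34 and 7.44 to 5.49 and 5.59 on the arrays above the floor, with POL6326 array 1 at the floor (log2 -2.39, SE 0.63, adjusted p = 0.0361). miR-10a, which lies in the HOXB cluster and is high in leukaemia with mutated NPM1, read 10.16, 10.52 and 10.24 against 9.27, 9.37 and 8.79, a 2.24-fold fall (log2 -1.16, SE 0.33, adjusted p = 0.0476). miR-10b, from the HOXD cluster, differed by -0.19 (adjusted p = 0.993). miR-551a read 8.85, 8.59 and 8.43 in control and 6.08, 6.50 and 7.36 with POL6326, a 3.93-fold fall (log2 -1.98, SE 0.36, adjusted p = 0.00356). miR-302d*, the star strand of a miRNA of pluripotent cells, read 11.43, 10.40 and 9.96 against 8.76, 7.89 and 7.38, a 6.02-fold fall (log2 -2.59, SE 0.70, adjusted p = 0.0402). The main strands miR-302a, miR-302b, miR-302c and miR-302d were at or near the floor on all 6 arrays. The miR-564 precursor fell 1.72-fold (log2 -0.78, adjusted p = 0.0426).

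**Figure D2:**
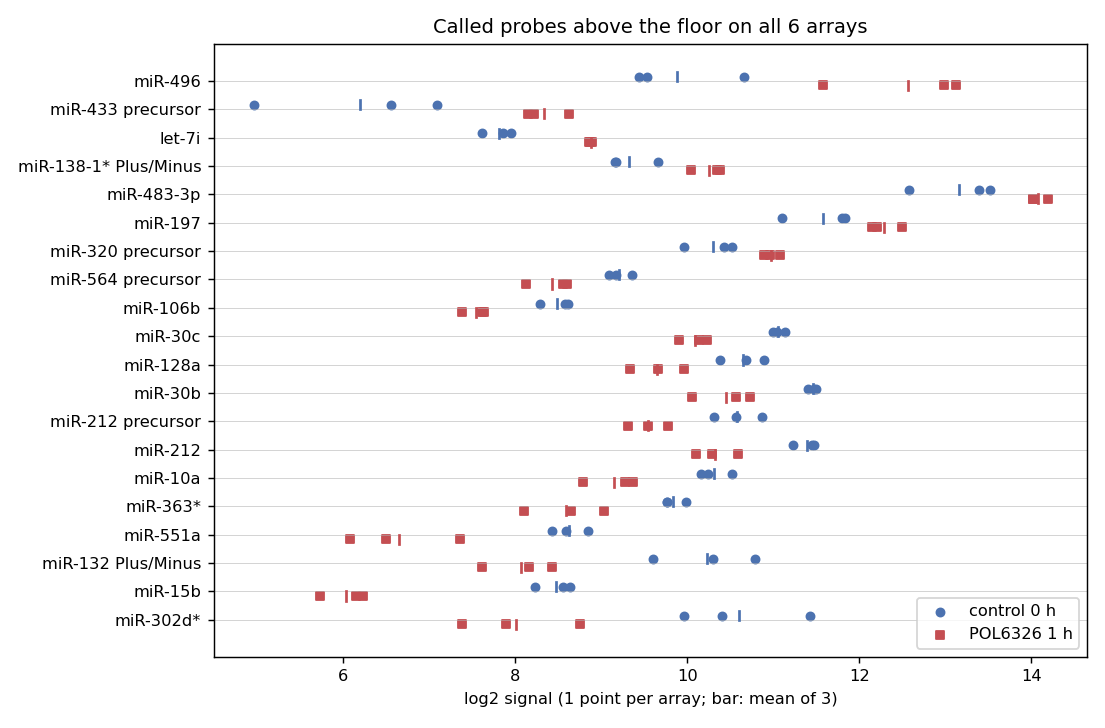
Log2 signal of each array for the 20 probes past the threshold that were above the floor on all 6 arrays; circles are control at 0 h, squares POL6326 at 1 h, and bars the mean of 3 arrays. Each probe's treated arrays lie wholly on 1 side of its control arrays, from miR-496 at the top to miR-302d* at the bottom.

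Some miRNAs were read in control and fell to the floor on every treated array. Their folds are bounds against the mean detection limit of the POL6326 arrays. The adjusted p-values are limma's for the fitted differences from the floor values, not for these bounds. miR-187 read 7.14, 7.79 and 8.14 in control and was at least 5.58-fold lower with POL6326 (adjusted p = 0.0235). miR-603 read 6.98, 7.23 and 7.48 and was at least 4.06-fold lower (adjusted p = 0.0107). The miR-646 precursor read 8.48, 7.24 and 6.65 and was at least 4.75-fold lower (adjusted p = 0.0149). The miR-194-1 precursor, from a p53-linked hairpin, read 4.58, 5.96 and 6.56 and was at least 1.41-fold lower (adjusted p = 0.0149). With floor values at the detection limits its call ended (log2 -0.49, adjusted p = 0.493 by limma), whereas miR-187, miR-603 and the miR-646 precursor passed again. Each of these control values but that of the miR-194-1 precursor on array 1 exceeded the detection limit of every treated array. miR-345 read 7.40 and 8.22 on control arrays 1 and 2 and was at the floor on control array 3 and all treated arrays (adjusted p = 0.0476). The miR-222 precursor read 6.36, 8.03 and 7.53 in control and was at the floor with POL6326, at least 4.27-fold lower, and missed the threshold (adjusted p = 0.0537), while mature miR-222 read 12.10 to 13.05 in control and 11.94 to 12.88 with POL6326. No probe was above the floor on all 3 treated arrays and at the floor on all 3 controls. The detection limit of control array 1, 4.30, lay under those of all treated arrays and left little room for such a probe. The counts in the 2 directions are therefore not comparable.

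Among the rises, miR-496 was the brightest with a large change. It belongs to the imprinted DLK1-DIO3 region, a large miRNA cluster on chromosome 14. It read 9.44, 10.67 and 9.53 in control and 11.58, 12.99 and 13.13 with POL6326, a 6.44-fold rise (log2 2.69, SE 0.60, adjusted p = 0.0149). The miR-433 precursor, from the same region, read 4.96, 7.09 and 6.55 in control and 8.63, 8.22 and 8.15 with POL6326, and rose 4.39-fold (log2 2.13, SE 0.48, adjusted p = 0.0149). Of the 79 probes of this region 2 rose and 0 fell, and the median difference was 0.01; over all probes the share that rose was 2.33%.

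let-7i read 7.86, 7.62 and 7.95 in control and 8.90, 8.86 and 8.87 with POL6326. The treated arrays lay close together above all controls, and the signal rose 2.09-fold (log2 1.07, SE 0.23, adjusted p = 0.0136), a call that also ended when the probes of 1 miRNA were averaged. let-7a, the miRNA named in the series title, read 8.24, 8.09 and 4.36 in control, the last being the floor, and 7.67, 8.32 and 7.55 with POL6326. The groups overlapped, and the difference of 0.95 (SE 0.80, adjusted p = 0.701) did not pass; without control array 3 it was -0.32 (adjusted p = 0.946). let-7d, which read 7.36, 6.60 and 7.31 against 8.45, 7.67 and 7.92, differed by 0.92 (SE 0.45, adjusted p = 0.309) with no overlap. Over the 17 let-7 family probes, 1 rose and 0 fell, beside 2.33% and 2.45% of all probes. In the family 12 differences were above 0, as were 442 of all 774. Of the 17 probes, 3 were at the floor on all 6 arrays, where the difference of 0.01 is one between floors. The family's differences ranged from -0.91 to 1.53 with a median of 0.07.

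The smaller rises read on all 6 arrays were those of miR-483-3p, miR-197, the miR-320 precursor and miR-138-1* Plus/Minus. miR-483-3p, which lies in an intron of IGF2, read 12.57, 13.39 and 13.52 in control and 14.19, 14.01 and 14.01 with POL6326, a 1.88-fold rise (log2 0.91, SE 0.25, adjusted p = 0.0423). miR-197 rose 1.63-fold (log2 0.70, adjusted p = 0.0476) and the miR-320 precursor 1.59-fold (log2 0.67, adjusted p = 0.0264), and the calls of all these 3 ended with median centring. miR-138-1* Plus/Minus, a star strand of the brain-enriched miR-138, read 9.66, 9.16 and 9.17 against 10.04, 10.34 and 10.39, a 1.90-fold rise (log2 0.93, SE 0.17, adjusted p = 0.00324). The plain miR-138-1* probe, at a mean of 10.16 in control and 10.46 with POL6326, differed by 0.30 (adjusted p = 0.164).

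miR-125b-2* had the smallest p-value of the comparison. It is a star strand of miR-125b, a miRNA of blood stem cells that drives leukaemia when overproduced, and its hairpin lies on chromosome 21. It read 4.64 on control array 1, the floor on control arrays 2 and 3, and 7.99, 7.91 and 7.93 with POL6326. The treated values lie above the detection limit of every control array. The fitted difference was 3.49 (SE 0.28, adjusted p = 1.24e-07), and with floor values set to the detection limits the rise was 4.92-fold (log2 2.30). The main strand miR-125b was at the floor on all 3 treated arrays and on control arrays 2 and 3. miR-125b-2* was the 1 probe past the threshold among 10 of the miR-125 and miR-99/100 group, whose median was -0.04. Of all probes 4.78% passed.

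For the other rises whose control values lay mostly at the floor, the size depends on that floor, so both forms are given. miR-608 read 5.70 on control array 1 and 6.84, 7.94 and 8.51 with POL6326 (log2 2.96, adjusted p = 0.0149; 1.77 at the detection limits). miR-190b read 4.49 and 6.62 on control arrays 1 and 3 and 8.34, 8.10 and 7.76 with POL6326 (log2 2.92, adjusted p = 0.0426; 2.42 at the limits). Both sets of treated values exceed all control readings. miR-672 read 5.00 on control array 1 and 7.83, 7.24 and 6.10 with POL6326 (log2 2.48, adjusted p = 0.0236; 1.29 at the limits). miR-137, a neuronal miRNA, read 4.56 on control array 1 and 6.91, 5.26 and 7.30 with POL6326 (log2 2.07, adjusted p = 0.0361; 0.87 at the limits). miR-186 read 4.47 on control array 1 and 6.19, 5.76 and 6.96 with POL6326 (log2 1.91, adjusted p = 0.00356; 0.72 at the limits). POL6326 array 2 of both lies under the detection limits of control arrays 2 and 3. miR-674, miR-203 of skin epithelium, miR-451 of red-cell precursors and the miR-637 precursor rose by a fitted 1.90, 1.90, 1.66 and 1.54, and by 0.71, 0.71, 0.47 and 0.35 at the limits, with adjusted p between 0.0235 and 0.0423. The calls of all those in this paragraph but miR-190b ended with floor values at the detection limits.

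**Figure D3:**
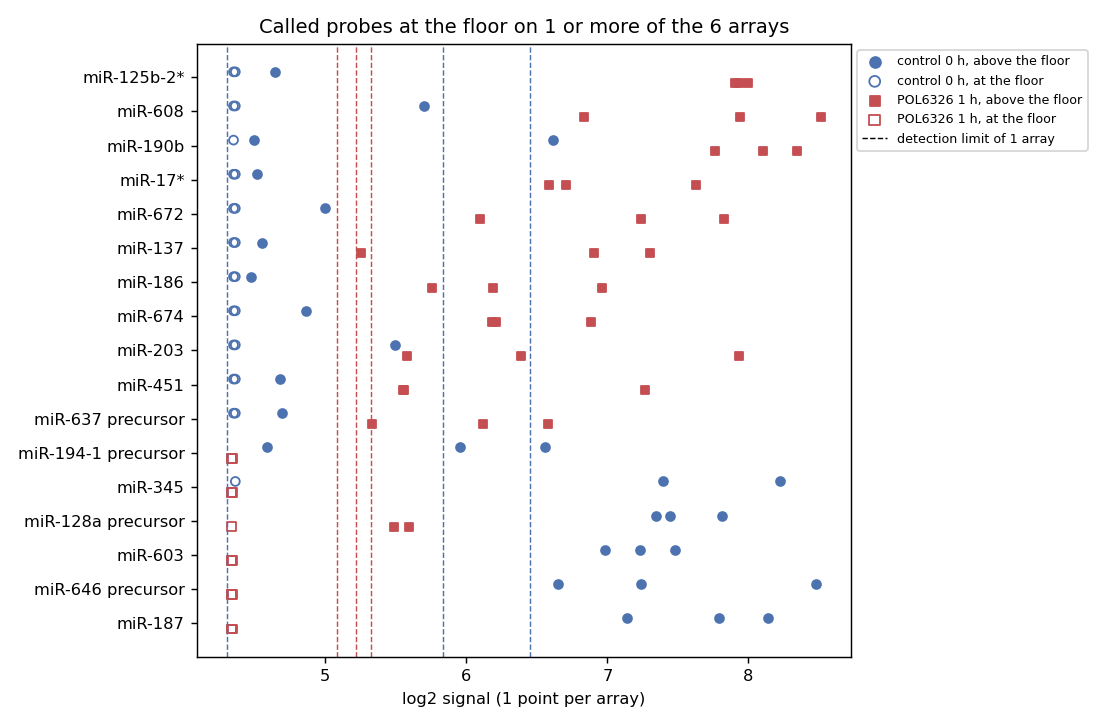
Log2 signal of each array for the 17 probes past the threshold that were at the floor on at least 1 array; circles are control, squares POL6326 at 1 h, open symbols are floor values and dashed lines mark the detection limits of the 6 arrays. Most control values of the rises are floor readings plus 1 dim reading on control array 1, and miR-125b-2* stands above all the limits.

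miRNAs listed for other roles were read against the same 4.78% of all probes. Their counts at limma's unadjusted p under 0.05 stand beside 131 of all 774 probes, 66 higher and 65 lower. Of 7 probes of miRNAs reported to repress CXCR4 itself, 0 passed limma's test (3 had an unadjusted p under 0.05, 2 higher and 1 lower), and their median was -0.05. In that list miR-139-3p read 9.88, 9.15 and 8.92 in control and 8.64, 6.96 and 6.85 with POL6326, with no overlap (log2 -1.83, SE 0.54, adjusted p = 0.0607). miR-9, which is also neural, read 5.06 and 7.66 on control arrays 1 and 2, the floor on control array 3, and 7.65, 7.85 and 8.20 with POL6326 (log2 2.20, adjusted p = 0.102). Of 17 myeloid and haematopoietic probes 0 passed (2 higher and 4 lower at an unadjusted p under 0.05), with a median of -0.19. Of 11 HOX-embedded probes miR-10a fell, and miR-196a read 7.39 to 7.66 with POL6326 and was at the floor on control arrays 2 and 3 (log2 2.57, adjusted p = 0.067). Of 8 probes linked to NF-kB, the transcription factor of inflammation, miR-187 fell and 0 rose. Of 8 probes of miR-26, miR-103 and miR-107 0 passed (1 lower at an unadjusted p under 0.05). That 1 was miR-26a, which had the largest difference of all 774 probes, from 8.95, 9.27 and 9.03 in control to the floor on POL6326 arrays 1 and 3 and 6.77 on array 2 (log2 -3.93, SE 1.26, adjusted p = 0.0843). For the miR-29 family 0 of 7 probes passed (1 higher and 1 lower unadjusted), and 0 of 9 for miR-181, 0 of 4 for miR-191 with miR-425 and 0 of 1 for the hypoxia-induced miR-210, with 0 unadjusted in each.

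Markers of other cell types were read in part. Among markers picked after their values were seen, the plain probes of miR-205, miR-206 and miR-145 were above the floor on all 6 arrays. Those of miR-143, miR-126 and miR-200c were at the floor on all 6. Beside 2.33% of all probes that rose and 2.45% that fell, 2 of 20 neural probes rose and 2 fell. Of 11 epithelial probes 1 rose, of 5 erythroid probes 1 rose, and of 16 pluripotent probes 1 fell. In the p53-linked list, which is not one of cell types, 1 of 15 probes fell. Of 10 muscle, 2 liver, 14 stromal and endothelial and 45 placental (C19MC) probes 0 passed. At limma's unadjusted p under 0.05 there were 1, 1, 3 and 2 of them, beside 131 of all 774 probes. Of the 45 placental probes, 30 were at the floor on all 6 arrays. The defining erythroid miRNA miR-144 was at the floor on all 6 arrays. miR-122, which marks liver, had mean signals of 7.30 in control and 8.29 with POL6326 (log2 0.99, adjusted p = 0.471). The part of other cells or of unspecific binding in these signals was not tested.

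**Figure D4:**
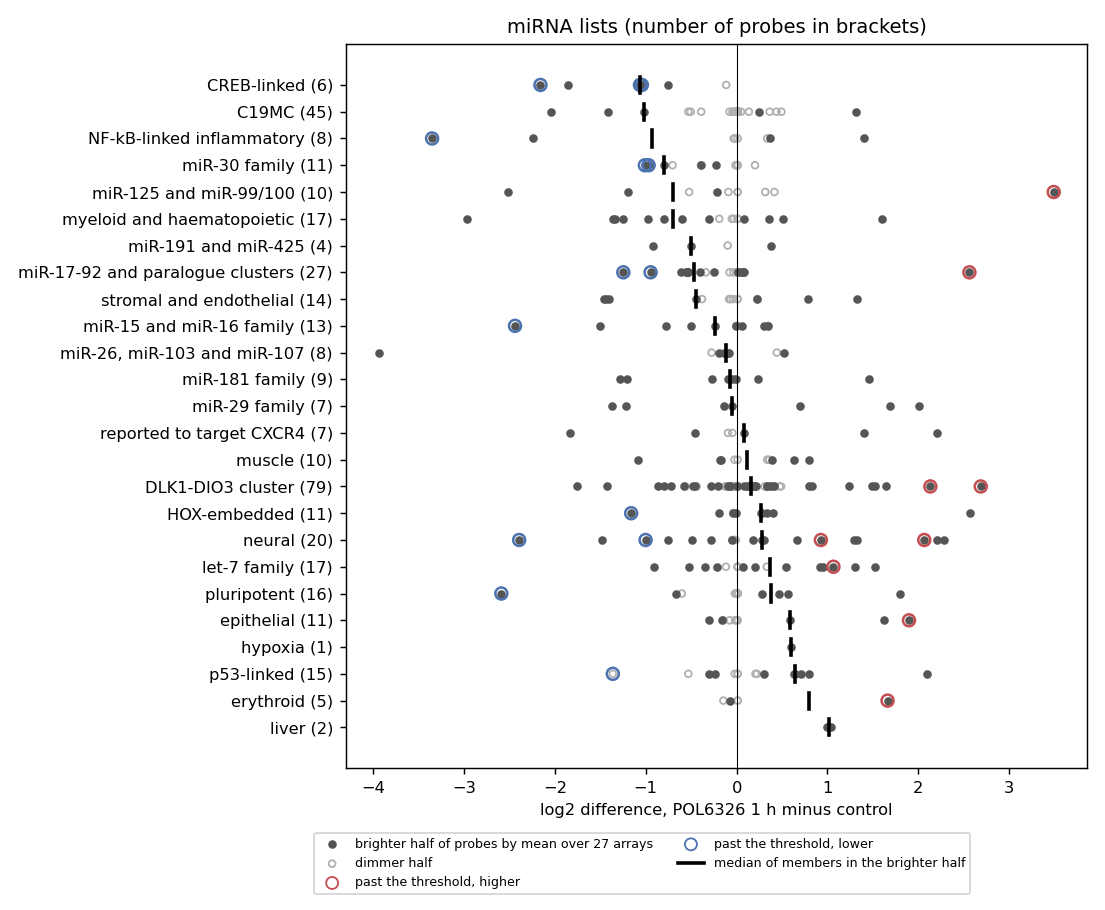
Log2 difference between POL6326 1 h and control (horizontal axis) for the probes of 25 miRNA lists, 1 point per probe, with the number of probes in brackets; filled points are among the 387 brightest probes, rings mark probes past the threshold and bars the median of the brighter members. All 6 probes of the CREB-linked list lie below 0, whereas most lists spread on both sides of it.

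The later POL6326 arrays place these values in time. Here the 1 h arrays were compared with the mean of the 2, 4 and 8 h groups, which leaves the control out, and 22 of 774 probes (2.84%) passed. miR-551a, which had a mean of 6.65 at 1 h, read 7.26, 9.09 and 8.74 at the later times against 8.62 in control. It was lower at 1 h than later by 1.72 on the log2 scale (difference -1.72, SE 0.30, adjusted p = 0.00527). The miR-212 precursor read 9.54 at 1 h and then 9.48, 10.67 and 10.63 (difference -0.72, SE 0.14, adjusted p = 0.0133), and had a mean of 10.58 in control. miR-212 itself read 10.32, 10.36, 10.88 and 10.78 at these times, and its difference from the later mean did not pass (-0.35, adjusted p = 0.204). miR-187 went from the floor at 1 h to means of 6.18, 7.09 and 8.19 (difference -2.82, adjusted p = 0.0272). miR-302d* read 8.01 at 1 h and 8.72, 11.36 and 10.33 later (difference -2.13, adjusted p = 0.0497).

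Other probes kept their level or moved the other way. miR-30c read 10.09 at 1 h and 10.14, 9.99 and 9.98 later, all under the 11.06 of control (difference of 1 h from later 0.06, adjusted p = 0.87), and miR-30b read 10.45 and then 10.03, 10.32 and 10.49. miR-125b-2* read 7.94, 7.65, 4.99 and 7.16 at 1, 2, 4 and 8 h, higher at 1 h than in the mean of the later groups by 1.34 (SE 0.23, adjusted p = 0.00527). miR-496 read 12.56, 13.02, 9.83 and 10.82 (difference 1.34, adjusted p = 0.154). miR-448 and miR-26b were higher at 1 h than later, by 0.94 (SE 0.17, adjusted p = 0.00575) and 0.83 (SE 0.16, adjusted p = 0.00924), but did not differ from control beyond the spread (0.30 and -0.09, adjusted p = 0.559 and 0.993). Median centring moved the median of all probes in this comparison from 0.03 to 0.26 and raised the count from 22 (13 higher, 9 lower) to 253 (236 higher, 17 lower), and quantile normalization gave 18 higher and 7 lower. Without POL6326 1 h array 1 or 3, 2 h array 1 or 4 h array 2 the count was 7, 11, 14 or 10.

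**Figure D5:**
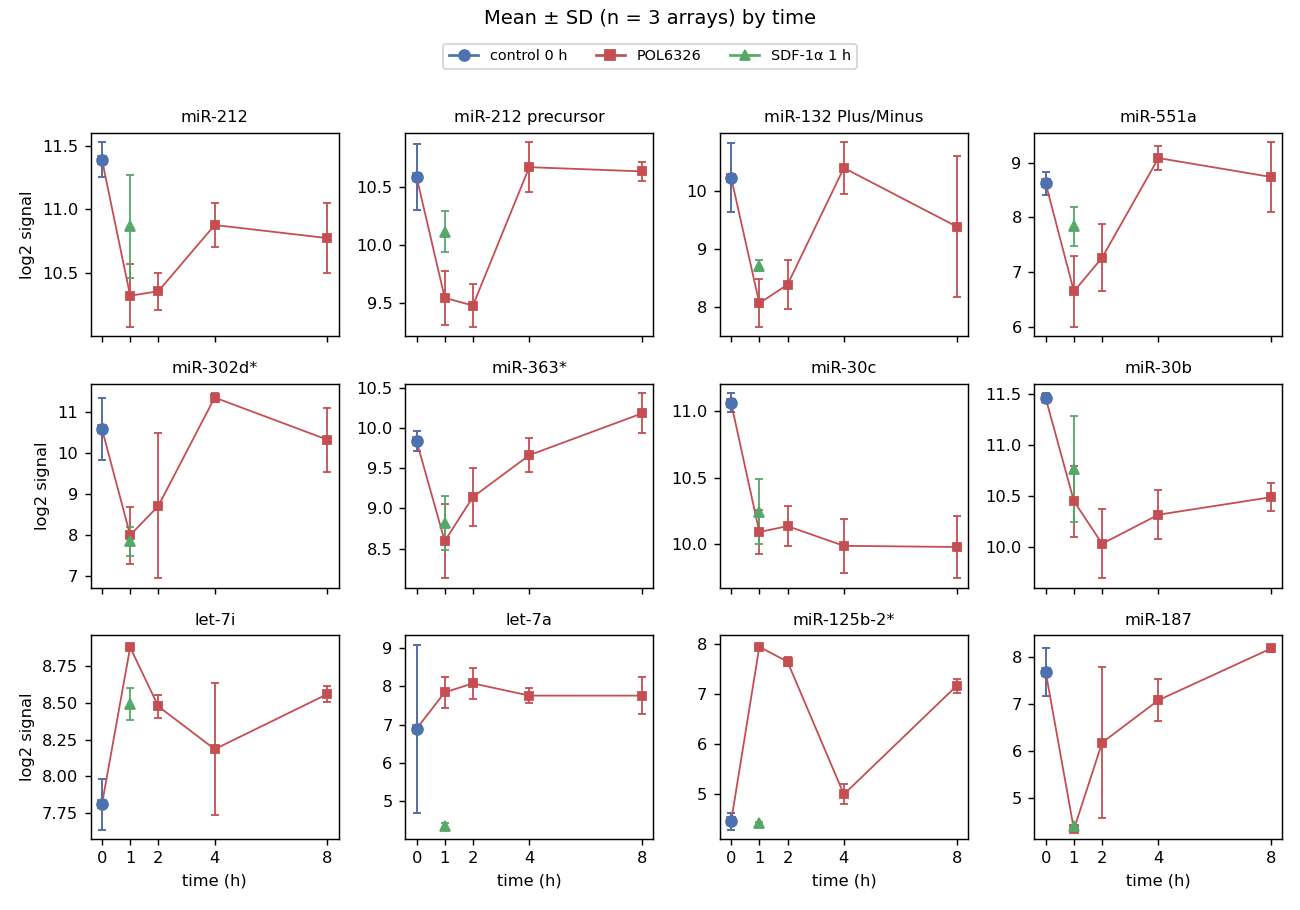
Mean log2 signal ± SD of 3 arrays against time (h) for 12 miRNA probes, with control at 0 h (circle), POL6326 at 1, 2, 4 and 8 h (squares joined by lines) and SDF-1α at 1 h (triangle). The miR-212 precursor, miR-551a and miR-302d* are low at 1 h and back near the control level at 4 h, and miR-30c stays low. The 4 h arrays had more probes above the floor than the 1 h arrays.

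SDF-1α for 1 h, the ligand in place of the antagonist, was the only other group taken at the same time. Its arrays had the highest detection limits, 6.88 to 7.42, with 210 to 241 probes above the floor. Against these arrays 27 of 774 probes (3.49%) differed with POL6326, and 4 passed when only the 182 probes above the floor on all 6 arrays were tested. Without SDF-1α array 2 or 3 the count was 12 or 11. A probe read on all arrays was miR-138-1* Plus/Minus, at a mean of 9.50 with SDF-1α and 10.26 with POL6326 (difference 0.76, SE 0.17, adjusted p = 0.016). Of the 27, 21 were higher with POL6326 and at the floor on all 3 SDF-1α arrays, so that only a bound against their mean detection limit of 7.16 can be given. The adjusted p-values beside the bounds are limma's for the fitted differences from the floor values. The bounds themselves were not tested, and floor values vary little, which can make these p-values too small. With POL6326, miR-758, which read 8.57 in control, was higher by at least 2.80-fold (adjusted p = 5.44e-08), miR-125b-2* by at least 1.72-fold (adjusted p = 5.44e-08), the miR-657 precursor by at least 1.70-fold (adjusted p = 0.00378) and miR-557 by at least 1.26-fold (adjusted p = 1.49e-05). For 8 of the 21, miR-186 among them, the mean with POL6326 lay under that limit, and such a level could not have been read on the SDF-1α arrays, so that no difference is shown for them. For the bright falls miR-212, miR-30c, miR-10a and miR-128a the SDF-1α means also lay under control. Their differences between POL6326 and SDF-1α did not pass limma's test. miR-212 read 11.39 in control, 10.87 with SDF-1α and 10.32 with POL6326 (POL6326 minus SDF-1α -0.54, adjusted p = 0.111). miR-30c read 11.06, 10.25 and 10.09 (-0.15, adjusted p = 0.616). miR-10a read 10.31, 8.88 and 9.15 (0.27, adjusted p = 0.737) and miR-128a 10.65, 9.78 and 9.65 (-0.13, adjusted p = 0.837). miR-15b read 8.48 in control and 6.04 with POL6326 and was at the floor with SDF-1α (adjusted p = 0.158). Both comparisons with control share the same 3 control arrays.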

How the data were processed

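The table the authors deposited holds log2 signals of 784 probes on 27 arrays; the log base is inferred from the values. Per the labels' protocols, total RNA was reverse transcribed with a biotinylated random primer and hybridised. No source used here gives the scanner software, background correction or normalization; the 4 highest values are the same on all 6 arrays compared, and no build is named. The 10 control probes were left out of the tests. A probe at an array's most frequent value (within 1e-04) or below it is at the floor; the detection limit is the lowest value above it.

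limma 3.58.1 in R 4.3.3 fitted 1 mean for each of 9 groups over 27 arrays (prior degrees of freedom 0.90, total 18.9), with Benjamini-Hochberg adjustment over 774 probes and a threshold of 0.05, two-sided. Floor values vary little, which can make their SE and p too small. The script was tested on simulated data. Bounds compare a group's mean with the other group's mean detection limit. Fitting all arrays pools the spread of groups with different floors.

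The arrays, lists and comparisons were chosen with earlier results of these data known. Named probes were the 15 largest changes past the threshold in each direction, 5 and 5 among probes read on all 6 arrays, up to 8 at the floor in 1 group, let-7a and the counts of its family, up to 3 members of each list by p, and up to 5 by p in each other comparison; further probes named (the neighbours and seed relatives of a changed probe, other strands, and the rest of the 37) were chosen after their values were seen. Same-numbered arrays of the 2 groups deviated with correlations of -0.006, -0.008 and 0.008, so that the numbers were not taken as pairs. RefSeq hairpins matched 28 of the 37 probes and 625 of 774 by name. Alternatives covered centring, quantile normalization, filters on dim probes, the floor, averaging, the prior, a block, a covariate and leaving out each array; floor values set to the detection limit were added after seeing the data.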

Additional observations from a re-analysis of the deposited data

Results flagged for a closer look

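Some probes that changed against control also differed with POL6326 at 1 h from SDF-1α at 1 h, by the test of that difference. miR-138-1* Plus/Minus was higher by 0.76 and was read on all arrays. The other probes were at the floor on all 3 SDF-1α arrays, whose mean detection limit is 7.16, so that their fitted log2 differences are not sizes. miR-125b-2* (fitted 3.54) and miR-608 (fitted 3.36) were at least 1.72-fold and 1.52-fold higher with POL6326 against that limit. miR-203 (fitted 2.23), miR-137 (2.08), miR-674 (2.02), miR-186 (1.98), miR-451 (1.72) and the miR-637 precursor (1.60) had means under that limit with POL6326, and no difference from SDF-1α is shown for them.

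Other probes that changed against control differed between POL6326 at 1 h and the mean of POL6326 at 2, 4 and 8 h. miR-187 (-2.82), miR-302d* (-2.13), miR-551a (-1.72), miR-363* (-1.07), the miR-212 precursor (-0.72) and the miR-564 precursor (-0.66) were lower at 1 h. The miR-637 precursor (1.41), miR-125b-2* (1.34) and miR-197 (0.79) were higher at 1 h.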

How the results depend on the processing

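All 37 calls against control kept their direction under each alternative that tested them, and miR-125b-2*, miR-30c and miR-603 kept their call under each. The count of 37 became 32 with median centring, 35 with quantile normalization, 37 with floor values at the detection limits (23 of them shared), 39 with 1 common detection limit of 7.42 (22 shared), 36 with a covariate for how many probes each array read above the floor, 7 with only the groups compared, and 14 to 45 without 1 array. With the replicate block it was 45, of which 36 were shared, and no array of control or POL6326 1 h correlated best with its own number; miR-10a was lost under that block. let-7a turned to -0.071 with 1 common detection limit, and it ranged from -0.32 to 1.62 without 1 array (-0.32 without control replicate 3). The count of 27 against SDF-1α became 4 with probes above the floor on all arrays compared, 524 (9 higher, 515 lower) with floor values at the detection limits, which are highest on the SDF-1α arrays, and 11 to 28 without 1 array; with the replicate block it was 29, and same-numbered arrays of those groups deviated with correlations of 0.027, 0.172 and 0.110, best with their own number for 2 of 3. The count of 22 against the later times became 253 with median centring, 40 with 1 common detection limit, 52 with only the groups compared, 13 with probes of 1 miRNA averaged, 6 with the covariate, and 7 to 24 without 1 array; with the replicate block it was 19. The causes of these moves were not tested. Signal over the floor limits what can be read: 201 of 774 probes were at the floor on all 6 arrays, and the number of arrays limits the precision.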

Other observations

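The 10 control probes, named here as in the deposited table, stayed out of the tests above. Their log2 differences between POL6326 1 h and control ranged from -2.08 to 0.17. On 4 of them (HUMTRAB, HUMTRF, HUMTRN and HUMTRS) all treated arrays were lower than all controls, and on 0 all were higher. Among the miRNA probes the groups did not overlap, in either direction, for 230 of 774 (29.7%). HUMTRS, for example, read 10.67, 11.61 and 11.08 in control and 9.67, 9.50 and 10.16 with POL6326 (log2 -1.34, adjusted p = 0.07 by limma), and GAPDH read 9.79, 10.31 and 9.91 against 9.32, 10.40 and 10.80.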
